A study of Rattus norvegicus with 12 samples.

Results

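The cytosolic ribosomal protein genes were described here across 6 groups of rat hypothalamus. A gene was taken where its symbol was Rpl or Rps and a number, Rplp0 to Rplp2 or Rpsa, S6 kinases (Rps6k) left out, and where its mean over the 12 libraries reached 1 CPM (fragments scaled to a fixed library size). This gave 78 of the 17310 genes in the files, from 86 matching symbols. By symbol, 44 encode proteins of the large subunit and 32 proteins of the small subunit, paralogs included. The other two fit the label less well. Rps19bp1 encodes a protein that binds a ribosomal protein and is not a subunit, and Rpl37a-ps1 is named as a pseudogene. The rule used the level alone. Just outside the threshold lay Rpl9 at 0.962 and Rpl37 at 0.895 CPM, and just inside it Rps4y2 at 1.16 and Rps27l at 2.51 CPM. The others left out for their level were Rps20, Rpl39, Rpl39l, Rpl35a, Rpl3l and Rps4x-ps1.

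The tissue was the hypothalamic region around the paraventricular nucleus (PVH) of wild type Wistar rats aged 12 weeks, and 12 mRNA libraries formed 6 groups of 2. Sham-operated rats (sham-ADX) are called sham here. High Cort stands for 12 days of raised corticosterone, ADX for adrenalectomy 7 days earlier, and supplemented ADX for adrenalectomy with corticosterone given back. The groups called 1 h acute and 3 h acute were taken at those times following acute corticosterone. The labels gave no route, dose or vehicle, no duration for supplemented ADX, no surgical state for the acute groups, and did not say whether a library was 1 animal or a pool. The p values therefore measure the spread between these libraries, which may be technical. Libraries held 17674159 to 36249006 fragments, and the 78 genes together took 0.433% to 0.525% of them. All 7 genes listed for PVH neurons, among them Crh, Avp and Oxt, were detected, with summed levels from 409 to 970 CPM. In whole tissue, fewer cells of a type and less RNA per cell cannot be told apart.

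A ribosome has a small subunit, which binds the mRNA and decodes it, and a large subunit, which joins the amino acids. Most of their proteins are encoded by single genes that are expressed in all cells. The mRNAs typically begin with a 5′ terminal oligopyrimidine (TOP) tract, a C followed by a run of C and T bases, through which the kinase complex mTORC1 and the protein Larp1 control their translation. Glucocorticoids act on mTORC1 signalling in several tissues, for example through Ddit4.

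The starts of 10 genes are shown because the TOP tract is the feature that most members share, with Rpl10 as an example of a long one, and because results turn on the other 9. The sequences come from RefSeq (rat build GRCr8, not the build rn6 of the files), and cover 40 bases before and 20 bases from the annotated start, 5′ to 3′. Capitals mark the tract, read from the C nearest to the start that is followed by at least 4 bases of C or T, and no capitals mean that none began within 10 bases of the start.
Rpl10 (chrX:157205810-157205869, plus strand): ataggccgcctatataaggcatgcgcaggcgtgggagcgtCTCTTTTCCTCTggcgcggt
Rpl37a (chr9:81748051-81748110, plus strand): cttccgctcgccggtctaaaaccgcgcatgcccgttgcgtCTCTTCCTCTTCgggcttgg
Rplp0 (chr12:46718371-46718430, minus strand): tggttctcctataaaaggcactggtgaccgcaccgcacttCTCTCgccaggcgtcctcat
Rplp1 (chr8:71290853-71290912, minus strand): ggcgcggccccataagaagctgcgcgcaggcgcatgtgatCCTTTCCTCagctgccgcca
Rplp2 (chr1:205975881-205975940, plus strand): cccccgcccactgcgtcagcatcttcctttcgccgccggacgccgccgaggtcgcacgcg
Rpl13a (chr1:104748894-104748953, minus strand): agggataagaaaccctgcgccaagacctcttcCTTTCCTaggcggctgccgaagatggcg
Rps28 (chr7:15311314-15311373, minus strand): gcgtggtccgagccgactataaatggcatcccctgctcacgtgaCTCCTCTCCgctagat
Rpl3 (chr7:113507971-113508030, minus strand): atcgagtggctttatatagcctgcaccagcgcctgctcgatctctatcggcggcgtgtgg
Rpl22 (chr5:168117921-168117980, plus strand): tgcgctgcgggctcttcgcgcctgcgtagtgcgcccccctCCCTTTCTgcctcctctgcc
Rpl22l1 (chr2:113683156-113683215, plus strand): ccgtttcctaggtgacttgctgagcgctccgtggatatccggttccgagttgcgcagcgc

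Promoters of 62 of the 78 genes were in the table. A tract began within 10 bases of the start in 44 of the 62 (71.0%), against 28.9% of all 33469 promoters and 36.7% of 60 genes for mitochondrial ribosomal proteins. Read in that way, from the C nearest to the start, it began exactly at the annotated start in 20 of 62 (32.3%), against 2.63% of all promoters. Rpl10, Rpl37a, Rplp0, Rplp1 and Rpl22 were of this kind. In Rplp0 and Rpl22 the run of C and T bases reached further upstream, back to an earlier C. Between paralogs it differed: Rpl22 carried a tract of 8 bases at its start and Rpl22l1 none within 10 bases of its start. In the 250 bases before to 50 after the start, the letters CCGGAAG were found on either strand in 18 of 62 (29.0%, all promoters 8.745%), GATGGCGG in 6 (9.68%, all promoters 1.93%) and TATAAA in 7 (11.3%, all promoters 14.2%). The genes for mitochondrial ribosomal proteins held CCGGAAG in 21 of 60 and GATGGCGG in 8 (13.3%), larger shares than the members. The reverse complement of CCGGAAG contains CTTCC, so a match near a start can also count as a tract. A match of letters is a description and not a shown binding site.

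Levels per length were given by FPKM (fragments scaled to gene length and library size). Rpl21, a protein of the large subunit, was highest at a mean of 438.8 FPKM (lowest library 401.5, highest 485.4). It was followed by Rps29 at 357.3, Rpl13a at 346.3, Rplp1 at 323.6, Rpl41 at 296.4, Rpl3 at 275.9, Rpl37a at 275.5 and Rpl26 at 271.8 FPKM. The lowest library of Rpl21 lay above the highest of Rps29 (397.7 FPKM) but below the highest of Rpl13a (408.8 FPKM). Among these genes, from Rps29 to Rpl26, the ranges of neighbours in this order overlapped. Lowest were Rps4y2, a paralog of Rps4x, at 1.64, Rps27l, a paralog of Rps27, at 5.37, Rps19bp1 at 9.37 and Rpl7a at 10.4 FPKM. Paralogs aside, the FPKM of subunit genes among the members ranged from 438.8 for Rpl21 to 10.4 for Rpl7a, and 5 genes of subunits (Rpl9, Rpl37, Rpl39, Rpl35a and Rps20) were below 1 CPM. Rpl35a had 3 to 8 fragments a library.

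Ribosomal protein genes have many processed copies in rodent genomes, and the fragments of identical copies can be split or dropped in counting. RefSeq named at least 1 pseudogene for 74 of the 78 genes, with a median of 10 and a maximum of 34 for Rps2. Rpl9, with 27 fragments a library on average, had 27 named pseudogenes, but Rpl35a and Rpl37, also below 1 CPM, had 4 and 5, and Rps2 and Rps27a, with 34 and 29, stood at 88.2 and 64.9 CPM. Levels of genes with near-identical copies are uncertain, and how multiply mapped fragments were counted is not given in the sources used here.

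The ribosomal protein genes moved together from library to library (plot of the genes by library). Each gene's level was set against its own mean over the 12 libraries, and the median over the 78 genes was taken in each library on the log2 CPM scale. Sham had -0.030 for replicate 1 and 0.014 for replicate 2, high Cort 0.019 and -0.079, ADX -0.062 and -0.00033. Supplemented ADX had 0.061 for replicate 1 and 0.077 for replicate 2, 1 h acute -0.070 and -0.079, 3 h acute 0.010 and 0.14. Both supplemented ADX libraries therefore stood above both ADX and both 1 h acute libraries. Both 3 h acute libraries stood above both 1 h acute libraries, while sham and high Cort overlapped. In 3 h acute replicate 2, 74 of the 78 genes were above their own mean, and in high Cort replicate 2 it was 5.

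**Figure D1:**
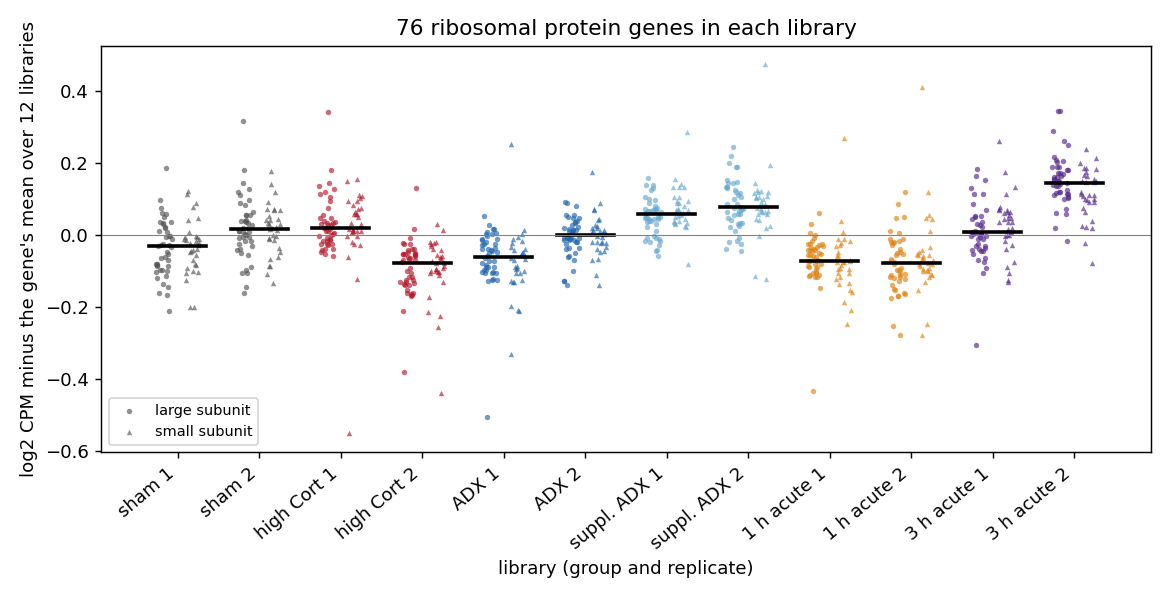
Log2 CPM of each of 76 ribosomal protein genes minus its mean over the 12 libraries (vertical axis) in each library (horizontal axis), with circles for the large subunit, triangles for the small subunit and a black line at the median. Both 1 h acute libraries lie low, both supplemented ADX libraries lie high, and the 3 h acute replicates differ from each other.

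The medians of both subunits lay near each other in each library, but were not in step everywhere. The large subunit median minus the small subunit median ran from -0.034 (3 h acute replicate 1) to 0.038 (3 h acute replicate 2). In 3 h acute replicate 1 the large subunit median was 0.0024 and the small subunit median 0.037. In high Cort against ADX the median log2 fold changes differed in sign, at -0.014 for the large and 0.031 for the small subunit. Across the 12 libraries, each gene's level correlated with the mean of the other ribosomal protein genes at a median Pearson r of 0.77, and 68 of 78 genes were above 0.5. These points share their libraries and their scaling, and r is not given here for other sets of genes. The mean of the large and small subunit genes in each library, each such gene itself included, was then subtracted. This lowered the SD of 71 of 78 genes, and the median SD fell from 0.094 to 0.059. The genes that followed the others least were Rps2 (r = -0.20), Rpl37a-ps1 (-0.20), Rps4y2 (0.11) and Rps19bp1 (0.26). The widest gap between 2 group means had a median of 0.19 on the log2 scale over the members and 0.23 over all genes tested. By this measure the groups were no further apart in these genes than in others. Single comparisons, given below, went both ways. In some, groups did not overlap for a larger share of members than of all genes, and in others for a smaller share.

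By group mean, supplemented ADX was the highest group for 38 of the 78 genes and 3 h acute for 34, while 1 h acute was the lowest for 47. Shares over all genes are not given here and the members moved together, so these counts are not read as a result about the members. In the test of any difference between the 6 groups, edgeR called 0 of the 78 at an adjusted p under 0.05. Of all 12856 genes tested, edgeR called 12.9%. DESeq2 called 1 member, Rpl37a-ps1, and its share of all genes in this test is not given here. The 6 genes of smallest p were Rpl10a (edgeR adjusted p = 0.077), Rplp2 (0.093), Rpl23 (0.10), Rps16 (0.11), Rps26 (0.11) and Rps9 (0.12). Calls in this test depended on single libraries. Rpl10a was called without either 1 h acute library, and Rps2 without ADX replicate 2. Without 3 h acute replicate 1, the members called were Rpl10, Rpl13a, Rpl23a, Rpl24, Rpl35 and Rps6. The share of all genes called in these fits is not given here, so these calls are not read as a result about the members.

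Rpl10a encodes the large subunit protein of the L1 stalk. Sham was at 34.0 and 35.3 CPM, high Cort at 31.9 and 30.1, ADX at 30.8 and 30.3, supplemented ADX at 32.7 and 32.7, 1 h acute at 31.5 and 36.0, and 3 h acute at 35.9 and 37.5. High Cort and ADX both lay below sham for this gene, without overlap, and 3 h acute lay above sham. Rps16, near the decoding centre of the small subunit, had sham at 83.3 and 90.6 CPM, high Cort at 93.6 and 84.0, ADX at 84.4 and 88.3, supplemented ADX at 94.1 and 96.0, 1 h acute at 83.9 and 85.6, and 3 h acute at 94.0 and 99.4. Rps9, which sits at the mRNA entry, had sham at 41.7 and 44.1, high Cort at 41.2 and 39.1, ADX at 40.1 and 42.1, supplemented ADX at 44.6 and 45.6, 1 h acute at 39.0 and 39.5, and 3 h acute at 42.0 and 45.3 CPM. For Rps16 and Rps9 the supplemented ADX libraries lay above those of ADX and of 1 h acute.

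High Cort against sham and ADX against sham ask what lasting corticosterone excess and the loss of adrenal hormones change. No ribosomal protein gene passed the test in either comparison. In high Cort, edgeR called 0 of 78 genes (all genes 0.871%, with 0.358% lower), 1 had an unadjusted p under 0.05 (all genes 8.36%), and DESeq2 and limma-trend on FPKM called none. The median log2 fold change was -0.017, against 0.010 over all genes tested, with the middle 50% of the members between -0.065 and 0.031. The median was -0.083 without high Cort replicate 1 and 0.033 without high Cort replicate 2. The fold change was positive in 30 of 78 (all genes 54.4%), and groups did not overlap for 15 (19.2%, all genes 37.8%). The smallest p belonged to Rpl10a, at 31.0 ± 1.28 against 34.6 ± 0.895 CPM (mean ± SD, n = 2; log2 fold change -0.16 ± 0.068, SE; edgeR adjusted p = 0.52).

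In ADX, 0 of 78 were called (all genes 0.233%), 4 had an unadjusted p under 0.05 (all genes 12.8%), and neither DESeq2 nor limma-trend called any. The median was -0.022 against -0.0045 over all genes, and 28 of 78 were positive (all genes 48.3%). The median was 0.014 without sham replicate 2 and 0.0070 without ADX replicate 1. Groups did not overlap for 21 of the 78 (26.9%), against 47.2% of all genes. Rpl10a was again the gene of smallest p, at 30.6 ± 0.37 CPM (-0.18 ± 0.067, edgeR adjusted p = 0.29). Both comparisons share the sham libraries.

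High Cort against ADX sets excess against loss of the hormone, and it called 5.77% of all genes, 3.5% higher and 2.27% lower. Of the 78 ribosomal protein genes edgeR called 0, DESeq2 called 0, and 1, Rpl37a-ps1, had an unadjusted p under 0.05 (all genes 20.9%). The log2 fold change was positive in 35 of 78 (all genes 52.9%), and the median was -0.0091 against 0.0098 over all genes. Groups did not overlap for 14 of 78 (17.9%), against 53.8% of all genes. The middle 50% of the members lay between -0.034 and 0.041, and that of all genes between -0.093 and 0.10. Of the members, limma-trend on log2(FPKM + 1) called Rpl37a-ps1 alone (all genes 4.51%), which is described with Rpl37a. Among the other members Rps29 had the smallest p, at 35.6 ± 1.87 against 32.3 ± 2.97 CPM (0.14 ± 0.079, edgeR adjusted p = 0.34). Rps2, which lines the mRNA channel of the small subunit, had high Cort at 88.7 and 81.8 CPM and ADX at 104.7 and 83.9, so the groups overlapped. Its call in a fit without ADX replicate 2 (-0.31, edgeR adjusted p = 0.030) rests on the higher ADX library.

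Supplemented ADX against ADX asks what corticosterone replacement changes after adrenalectomy. Nearly all ribosomal protein genes stood slightly higher in supplemented ADX, and none passed the test. Of the 78, 73 had a positive log2 fold change (93.6%, all genes 49.8%), with a median of 0.11 against -0.00038 over all genes. Groups did not overlap for 55 (70.5%, all genes 35%). EdgeR and DESeq2 called 0 of 78 (all genes by edgeR 0.0311%), and 18 had an unadjusted p under 0.05 (all genes 4.05%). Rps26, a small subunit protein at the mRNA exit, had the smallest p. It stood at 36.8 and 35.1 CPM in ADX and at 40.3 and 42.7 in supplemented ADX (0.21 ± 0.062, edgeR adjusted p = 0.95). Rps29 stood at 30.2 and 34.4 against 38.5 and 37.2 CPM (0.23 ± 0.077, adjusted p = 1.0). Without ADX replicate 1 the members' median was 0.070.

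Against sham, supplemented ADX was positive in 69 of 78 (all genes 49.2%), with a median of 0.074 (0.11 without sham replicate 2), and groups did not overlap for 46 (59.0%, all genes 41.5%). EdgeR and DESeq2 called 0 (all genes by edgeR 0.0156%), and 11 had an unadjusted p under 0.05 (all genes 10%). Rpl23a of the large subunit had the smallest p, at 63.9 and 66.6 against 56.8 and 56.5 CPM in sham (0.20 ± 0.061, edgeR adjusted p = 0.31). Supplemented ADX and the acute groups were in one of the authors' 2 processing runs and ADX and sham in the other, so a difference between runs cannot be told apart from one between groups.

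**Figure D2:**
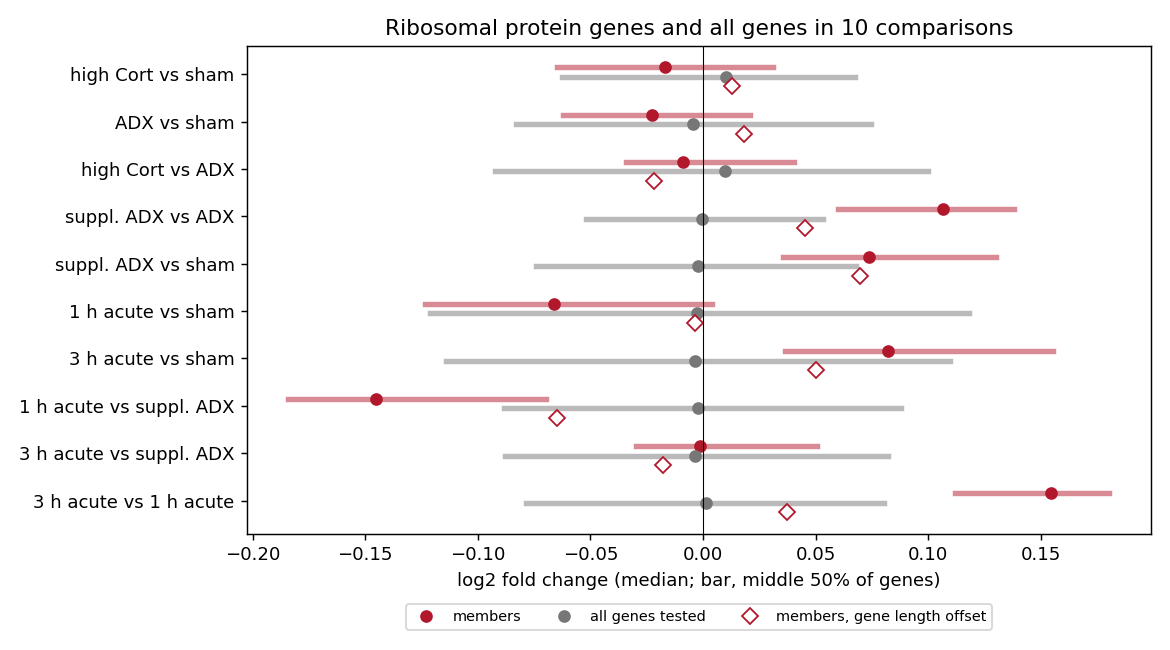
Median log2 fold change (points, horizontal axis) and middle 50% of genes (bars) for the 78 ribosomal protein genes (red) and all 12856 genes tested (grey) in 10 comparisons, with the members' median after a gene length offset (open diamonds). The members' median leaves 0 most in 3 h acute against 1 h acute (0.15) and 1 h acute against supplemented ADX (-0.15), and the offset brings these to 0.037 and -0.065.

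The acute groups give the time course after corticosterone. Most ribosomal protein genes stood lower at 1 h than at 3 h, and no member passed the test of that difference. Against sham, Rplp2 and Rpl13a passed at 3 h. In 3 h acute against 1 h acute, 76 of 78 had a positive log2 fold change (97.4%, all genes 50.4%), the large subunit genes in 44 of 44. The median was 0.15 against 0.0014 over all genes, and groups did not overlap for 57 (73.1%, all genes 38.9%). EdgeR and DESeq2 called 0 of 78 (all genes by edgeR 0.0233%), and 33 had an unadjusted p under 0.05 (all genes 10.6%). Rps28, a small protein of the small subunit, had the smallest p of the members. It had 1 h acute at 12.9 and 12.1 CPM and 3 h acute at 16.5 and 16.6, with the other 8 libraries between 13.01 and 16.58 (0.40 ± 0.11, edgeR adjusted p = 0.21). Rpl18 followed, with 1 h acute at 31.1 and 31.7 CPM and 3 h acute at 36.0 and 36.2, the highest libraries of all 12 for this gene (0.20 ± 0.062, adjusted p = 0.27). Without 3 h acute replicate 2 the members' median was 0.079.

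In 1 h acute against supplemented ADX, 6 of 78 were positive (7.69%, all genes 49.3%), with a median of -0.15 against -0.0022 over all genes. Groups did not overlap for 62 (79.5%, all genes 46.5%), and edgeR, DESeq2 and limma-trend called 0 (all genes by edgeR 0.0467%), with 32 at an unadjusted p under 0.05 (all genes 14.7%). Rpl23 had the smallest p, at 42.4 and 40.6 CPM at 1 h against 51.2 and 50.2 in supplemented ADX (-0.29 ± 0.073, edgeR adjusted p = 0.14). Rps3a stood at 132.8 and 131.2 against 144.8 and 152.0 CPM (-0.17 ± 0.047, adjusted p = 0.17). In 3 h acute against supplemented ADX the median was -0.0011, 39 of 78 were positive (all genes 48.7%) and none was called by edgeR, DESeq2 or limma-trend (all genes by edgeR 0.00778%). Of the 78, 5 had an unadjusted p under 0.05 (all genes 12.5%), led by Rpl10a (0.17 ± 0.067, edgeR adjusted p = 0.34), and groups did not overlap for 17 (21.8%, all genes 45.8%). The 2 replicates of 3 h acute lay on either side of supplemented ADX: without replicate 1 this median was 0.067, and without replicate 2 it was -0.060.

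In 1 h acute against sham, where 12.8% of all genes were called by edgeR, 5.56% higher and 7.2% lower, 0 of 78 members were called and 11 had an unadjusted p under 0.05 (all genes 27.4%). DESeq2 called Rpl21 lower (-0.21, adjusted p = 0.042) and Rpl37a-ps1 higher (all genes by DESeq2 12.6%). Rpl21 stood at 128.2 and 124.5 CPM against 141.5 and 151.4 in sham (-0.21 ± 0.067, edgeR adjusted p = 0.053). The median was -0.066 (-0.037 without sham replicate 2), and 21 of 78 were positive (all genes 49.4%). Groups did not overlap for 45 (57.7%, all genes 56.5%). With the length offset, described with gene length, edgeR called 3 members, all higher, among them Rpl13a (0.18) and Rpl23a (0.17). That fit called 12.6% of all genes, 5.12% higher.

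In 3 h acute against sham, 71 of 78 were positive (91.0%, all genes 49.1%), with a median of 0.082 against -0.0035 over all genes. EdgeR called 2 of 78, both higher, where 3.41% of all genes were called higher, 4.57% lower and 7.98% in either direction, so the share of members called was below the background. Groups did not overlap for 31 (39.7%, all genes 53.1%). DESeq2 also called 2, Rpl13a and Rpl37a-ps1, both higher, where it called 9.41% of all genes, 3.66% higher. Of these, Rpl13a was also called by edgeR, and Rpl37a-ps1 is described with Rpl37a. Of the 78, 17 had an unadjusted p under 0.05 (all genes 25%). The count of 2 went to 6, all higher, without 3 h acute replicate 1, in a fit that called 1.32% of all genes higher, so the order of members and background turned there. It went to 0 without 3 h acute replicate 2 or either sham library.

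Rplp2 encodes an acidic protein of the stalk, the arm of the large subunit that recruits elongation factors. Sham was at 13.45 and 15.66 CPM, high Cort at 15.26 and 13.91, ADX at 14.63 and 15.40, supplemented ADX at 15.13 and 16.74, 1 h acute at 15.002 and 15.36, and 3 h acute at 17.45 and 19.76. Both 3 h acute libraries lay above the other 10 (plot of 6 genes). Rplp2 rose 1.28-fold in 3 h acute against sham (0.35 ± 0.097, edgeR adjusted p = 0.039). The call was kept in 8 of 15 alternatives. It was lost at a log2 fold change no smaller than the reported one by DESeq2 (0.36, adjusted p = 0.066), in the fit of the 4 libraries alone (0.35, adjusted p = 0.076), without sham replicate 2 (0.48, adjusted p = 0.071) and with a thalamus covariate (0.42, adjusted p = 0.64, in a fit that called 8 of all genes). The fold change was 0.26 without sham replicate 1 (adjusted p = 0.17) and also 0.26 without 3 h acute replicate 2 (adjusted p = 0.28). Against 1 h acute it did not pass (0.30 ± 0.098, edgeR adjusted p = 0.30). With the members alone as the scale, the difference from sham was 0.27 (adjusted p = 0.088).

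The other stalk genes did not follow to the same degree. Rplp1 had sham at 79.6 and 87.5 CPM and 3 h acute at 86.7 and 94.9. Rplp0, which anchors the stalk, had sham at 140 and 143.1 CPM and 3 h acute at 140.8 and 150.6. For both genes the groups overlapped. Whether Rplp2 differed from Rplp0 and Rplp1 in its response was not tested.

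Rpl13a encodes a large subunit protein that can leave the ribosome and silence inflammatory mRNAs in myeloid cells. Sham was at 132.3 and 135.2 CPM, high Cort at 148.5 and 134.1, ADX at 141.4 and 151.1, supplemented ADX at 150.0 and 152.3, 1 h acute at 145.9 and 144.2, and 3 h acute at 145.1 and 168.0. Sham was the low group: of the other 10 libraries, high Cort replicate 2 alone fell within its range and the rest lay above it. Rpl13a rose 1.17-fold in 3 h acute against sham (0.23 ± 0.065, edgeR adjusted p = 0.046). Without 3 h acute replicate 2 the difference was 0.12 (adjusted p = 0.37). It was 0.22 without sham replicate 1 (0.11) and 0.25 without sham replicate 2 (0.16), and the fit of the 4 libraries gave an adjusted p of 0.089. A thalamus covariate gave 0.24 (adjusted p = 0.76, in the fit that called 8 genes in all), and scaling on the members alone gave 0.14 (adjusted p = 0.23). The seventh loss was with the replicate block (0.23, adjusted p = 0.063). Rpl13a was called in 8 of 15 alternatives.

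**Figure D3:**
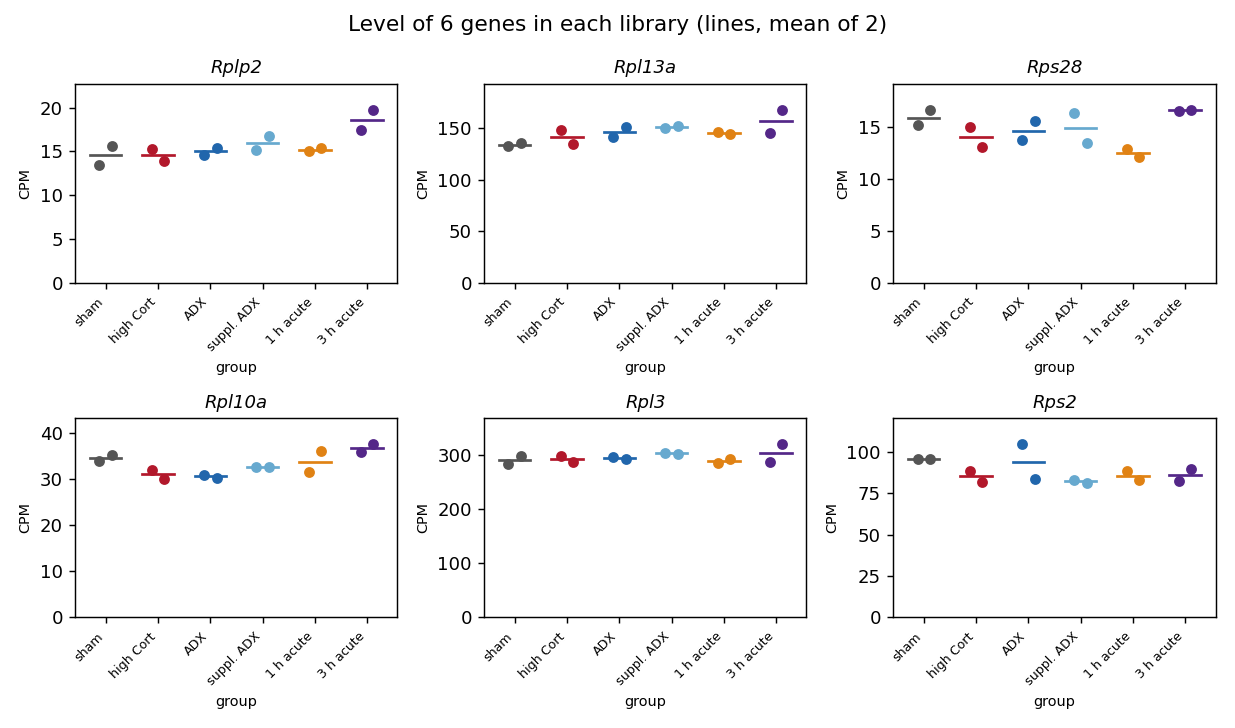
CPM (vertical axis, from 0) of 6 genes in each library, as 2 points a group with a line at their mean. Rplp2 is highest in both 3 h acute libraries (17.45 and 19.76 CPM), Rps28 is lowest in both 1 h acute libraries, and Rpl3 is nearly level over the groups.

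Other members of known position showed how small the differences were. Rpl3, which reaches towards the peptidyl transferase centre, had the narrowest gap between group means (0.068 on the log2 scale), with 288.2 ± 4.14 CPM in 1 h acute, 302.0 ± 0.742 in supplemented ADX and 302.2 ± 23.5 in 3 h acute. It was followed by Rpl4 (0.074) and Rpl6 (0.079). Rpsa, which is both a small subunit protein and a laminin receptor, ranged from 133.6 ± 3.36 in 1 h acute to 146.8 ± 7.96 CPM in 3 h acute. Rps6, the substrate of the S6 kinases, ranged from 49.3 ± 1.47 in high Cort to 56.3 ± 4.86 CPM in 3 h acute (edgeR adjusted p = 0.14 for any difference between groups).

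Of the paralogs, Rpl22 stood at 13.6 ± 0.451 to 15.6 ± 2.11 CPM over the groups and Rpl22l1 at 20.1 ± 1.23 to 22.6 ± 0.888 CPM. Per length, their mean levels were 66.6 and 63.4 FPKM. Rps27l stood from 2.19 ± 0.123 CPM in 1 h acute to 2.94 ± 0.134 in supplemented ADX, while Rps27 stood from 22.2 ± 1.89 in ADX to 25.6 ± 0.799 in supplemented ADX. No test of a difference between groups passed for either pair (edgeR adjusted p = 0.67, 0.51, 0.32 and 0.41 for Rpl22, Rpl22l1, Rps27l and Rps27). Rps4y2 had the widest gap between group means after the Rpl37a-ps1 row (0.78), on 19 to 50 fragments a library, where counting error alone is large. Rps19bp1 (0.51) and Rps27l (0.42) followed Rpl37a in this order, also at low counts.

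Rpl37a and Rpl37a-ps1 have to be read together. Rpl37a had sham at 41.9 and 45.8 CPM, high Cort at 46.6 and 40.3, ADX at 25.9 and 36.7, supplemented ADX at 35.4 and 43.6, 1 h acute at 27.3 and 30.9, and 3 h acute at 29.8 and 46.7. Rpl37a-ps1 was rounded to 0 fragments in both sham libraries and in high Cort replicate 1, and was at 0.799 CPM in high Cort replicate 2. It had ADX at 12.7 and 6.20 CPM, supplemented ADX at 8.51 and 2.28, 1 h acute at 10.2 and 8.37, and 3 h acute at 11.4 and 0.623. Both rows hold values that are not whole in all 12 libraries, and no other member does, so fragments were assigned to these rows in parts. Their sum had sham at 41.9 and 45.8 CPM, high Cort at 46.6 and 41.1, ADX at 38.6 and 42.9, supplemented ADX at 43.9 and 45.9, 1 h acute at 37.5 and 39.3, and 3 h acute at 41.2 and 47.4. The widest gap between group means was 0.59 (log2) for the Rpl37a row and 0.23 for the sum. The largest difference of the sum was -0.23 ± 0.082 in 1 h acute against supplemented ADX (edgeR adjusted p = 0.24). The share of the sum given to Rpl37a-ps1 ran from 0 after rounding in sham to 32.8% in ADX replicate 1, and no change in either row alone is reported as one of the gene.

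**Figure D4:**
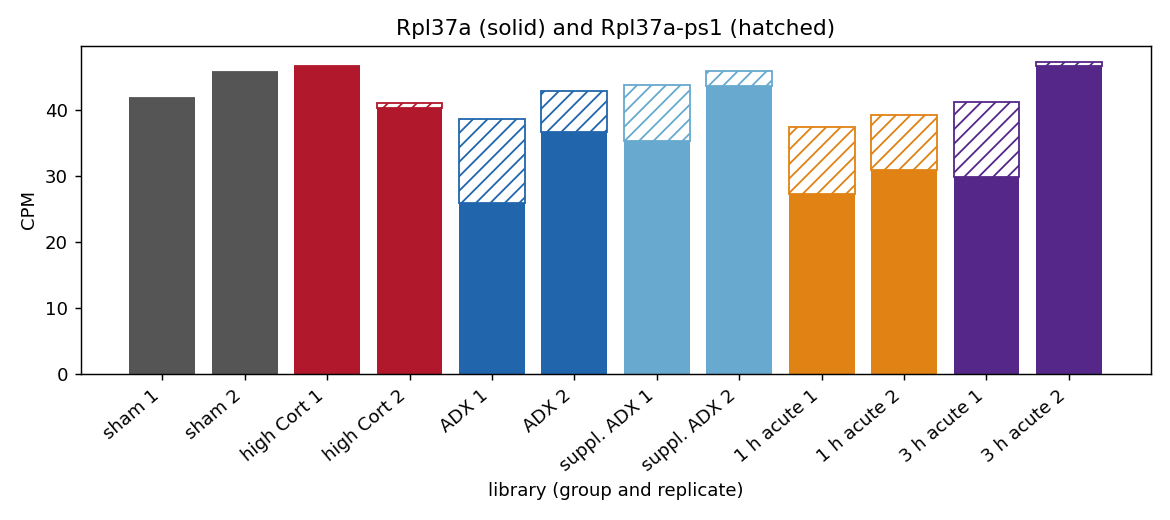
CPM of Rpl37a (solid) with Rpl37a-ps1 (hatched) stacked on it, in each library, from 0. The split between the rows differs between libraries, while the summed height stays between 37.5 and 47.4 CPM.

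Gene length moved with the members' level. The members are short: their median length, from fragments over FPKM, was 5.83-fold below that of all genes. In each library the log2 CPM deviation of all genes was regressed on log2 length, and the slope was lowest in 3 h acute replicate 2 (-0.031 per doubling of length) and highest in high Cort replicate 2 (0.022). The members' medians there were 0.14 and -0.079. Supplemented ADX had slopes of -0.0091 and -0.012, ADX of 0.010 and 0.0071, 1 h acute of 0.019 and 0.011, and 3 h acute replicate 1 of -0.0050 (plot of length trend). With a length trend per library as an offset, the members' median was 0.037 in 3 h acute against 1 h acute, -0.065 in 1 h acute against supplemented ADX, 0.045 in supplemented ADX against ADX and 0.050 in 3 h acute against sham. With the trend fitted to all genes but the members, which was added after seeing the data, these were 0.046, -0.073, 0.055 and 0.056. Each of these 4 kept its sign and was closer to 0 than without the offset. In 1 h acute against sham the median went from -0.066 to -0.0035. In high Cort against sham and ADX against sham the sign turned, to 0.013 and 0.018. In supplemented ADX against sham the median was 0.070 with the offset and 0.074 without. Scaling on the members alone, which centres them by construction, brought the medians to between -0.0074 and 0.011 in the 6 comparisons where they had been farthest from 0, and turned the sign in both acute groups against sham.

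**Figure D5:**
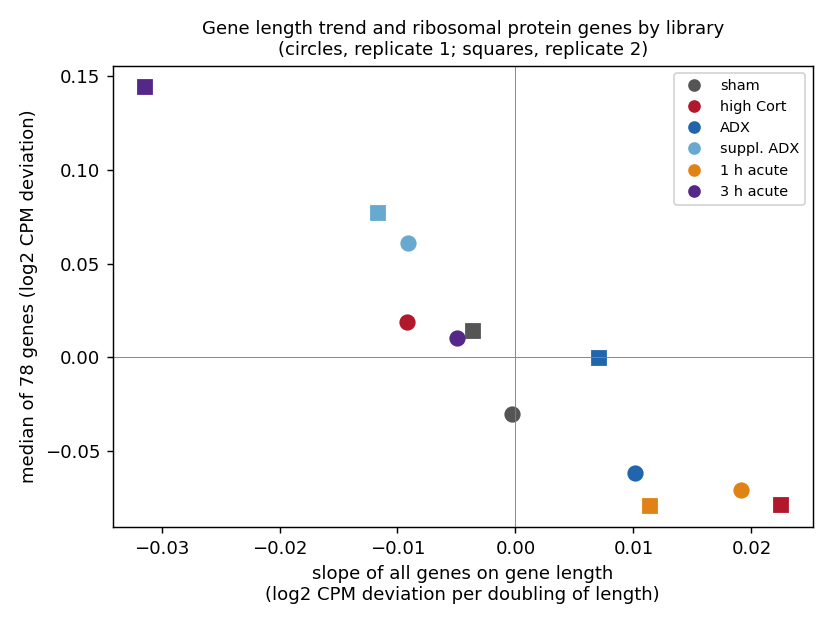
Median deviation of the 78 ribosomal protein genes (vertical axis, log2 CPM) against the slope of all genes on gene length (horizontal axis, log2 CPM per doubling of length) for the 12 libraries, coloured by group. Libraries in which longer genes stand lower tend to have higher ribosomal protein genes, from 3 h acute replicate 2 at the upper left to the 1 h acute libraries and high Cort replicate 2 at the lower right.

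Among the members themselves, the 10 longest had a median of 0.10 in 3 h acute against 1 h acute, and all 10 were positive, and the 10 shortest had 0.17. In 1 h acute against supplemented ADX these were -0.089 and -0.18. The members with a tract within 10 bases of the start had a median of 0.15 (n = 44) and those without one 0.17 (n = 18) in 3 h acute against 1 h acute, and 0.11 and 0.11 in supplemented ADX against ADX. In 3 h acute against sham they had 0.052 and 0.16, and Rplp2, which has no such tract, was among the latter. The Rplp2 sequence shown above holds a run of C and T bases further upstream, so this split depends on the annotated starts.

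Markers of other regions and cells also differed between the groups. The thalamus score is the mean log2 CPM of 13 detected thalamus markers of 14 listed, none of them at 0. Sham had scores of 7.42 and 7.82, high Cort of 7.71 and 7.76, ADX of 7.10 and 7.23, supplemented ADX of 7.19 and 7.23, 1 h acute of 6.95 and 6.22, and 3 h acute of 6.91 and 6.83. The 4 blood cell markers, all detected, summed to 35.4 to 40.8 CPM in sham, 21.5 to 24.9 in high Cort, 20.95 to 27.04 in ADX, 33.6 to 39.4 in supplemented ADX, 28.1 to 33.7 in 1 h acute and 54.6 to 68.2 in 3 h acute. The 10 neuron markers, all detected, summed to 6486 to 6691 CPM in sham, 6615 to 6643 in high Cort, 6204 to 6331 CPM in ADX, 6240 to 6359 in supplemented ADX, 5837 to 6161 in 1 h acute and 5967 to 6262 in 3 h acute. Against sham, 5 of the 10 were called lower in 1 h acute (all genes 7.2%) and 3 in 3 h acute (all genes 4.57%). The ribosomal RNA row Rn18s was at 803 and 947 CPM in ADX and at 1187 and 1726 in supplemented ADX, at 654 and 575 in 1 h acute and at 584 and 593 in 3 h acute, and high Cort replicate 1 stood apart at 3486. Blood markers were higher in supplemented ADX than in ADX and in 3 h acute than in 1 h acute or sham, where most members were positive. They overlapped between supplemented ADX and sham, where most members were positive too. In 3 h acute against supplemented ADX all 4 blood markers were positive (median log2 fold change 0.74), while 39 of the 78 members were (median -0.0011). The part of blood, neurons or ribosomal RNA in the members' level was not tested. With the thalamus score as a covariate, the members' median was 0.14 in 3 h acute against 1 h acute and 0.11 in supplemented ADX against ADX.

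Other genes of protein synthesis were read from lists written with earlier results of these data known. Fau and Gnb2l1, the older symbol of Rack1, encode small subunit proteins that the symbol rule missed, and both had the members' sign: in 3 h acute against 1 h acute, Fau had 0.12 ± 0.060 and Gnb2l1 0.13 ± 0.044, with edgeR adjusted p of 0.49 and 0.31. In supplemented ADX against ADX and against sham, 1 of the 2 was positive. Of 69 genes for mitochondrial ribosomal proteins, 53 were positive in 3 h acute against 1 h acute (median 0.087) and none was called. Of 18 genes for other TOP mRNAs, 11 were positive there (median 0.033), and Eef1a1, the main elongation factor, had 0.013 ± 0.039.

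Against sham, some genes that act around the ribosome passed the test. In 1 h acute, 2 of 52 ribosome biogenesis genes were called, both higher: the RNA helicase gene Ddx21 (0.21 ± 0.050, edgeR adjusted p = 0.016) and Dkc1, which encodes the pseudouridine synthase dyskerin (0.32 ± 0.087, adjusted p = 0.032). Dkc1 was also called in 3 h acute (0.40 ± 0.088, adjusted p = 0.018). Of 29 initiation factor genes, 4 were called in 1 h acute, all lower, among them Eif1ax (-0.22 ± 0.048, adjusted p = 0.011) and Eif3c (-0.20 ± 0.047, adjusted p = 0.015). Of 28 genes of the mTORC1 pathway, Ddit4, an inhibitor of mTORC1 that glucocorticoids induce, rose in 1 h acute (0.42 ± 0.12, adjusted p = 0.043), as did Rragd (0.28 ± 0.088, adjusted p = 0.0497). At 3 h, Ddit4 had 0.082 ± 0.12 (adjusted p = 0.74). Of 9 S6 kinase genes, which the rule left out, Rps6ka2 and Rps6ka6 rose in 1 h acute and Rps6ka3 fell in 3 h acute (-0.31 ± 0.069, adjusted p = 0.017). All genes were called at 12.8% in 1 h acute and 7.98% in 3 h acute against sham. The thalamus score was lower in every acute library (6.22 to 6.95) than in sham (7.42 and 7.82). The part of that score and the part of the group therefore cannot be told apart in these comparisons. With that score as a covariate, edgeR called 4 of all 12856 genes in 1 h acute and 8 in 3 h acute against sham, and none of the list genes called in the reported fit was among them. The log2 fold changes at 1 h were then 0.093 ± 0.20 for Ddit4, 0.078 ± 0.091 for Ddx21, 0.080 ± 0.15 for Dkc1, -0.089 ± 0.086 for Eif1ax and -0.14 ± 0.087 for Eif3c (edgeR adjusted p = 0.999 for each). In the fit of the 4 libraries alone, 23 genes in all were called in 1 h acute against sham, where the full fit called 1641. Leaving out sham replicate 2 or 1 h acute replicate 2 lowered that count most, and leaving out 1 h acute replicate 1 raised it.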

How the data were processed

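Libraries were TruSeq mRNA libraries, per the labels. Tools named in the submitters' processing notes are TopHat2 2.1.1, Cufflinks 2.2.1 and CASAVA 1.8.2, with build rn6 and no roles, and the annotation is not given in the sources used here. Per the file headers, each file is a read group table of 1 library with fragments and FPKM per gene. The deposited fragments are expected counts that the authors left unscaled; 0.751% of values were not whole and were rounded. The deposited FPKM values were scaled by the authors within 2 runs (sham, high Cort and ADX; the other 3 groups) and were used for levels and within-run tests.

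Counts were filtered with filterByExpr (minimum count 10, total 15), leaving 12856 genes with all 78 members, scaled by TMM and fitted with 1 robust edgeR 4.0.16 quasi-likelihood model of 6 groups in R 4.3.3. Tests were 2-sided, with Benjamini-Hochberg adjustment over all genes tested and calls under 0.05. CPM values printed are TMM-scaled; the member rule used plain CPM. Alternatives were RLE, no or stricter filter, DESeq2 1.42.0, limma-trend (limma 3.58.1) on log2(FPKM + 1) or log2(FPKM + 0.1), a fit of 4 libraries, a replicate block, a thalamus score, a gene length offset, scaling without the members or on them alone, and leaving out each library. A further 2 were added after seeing the data: a length offset fitted without the members, and Rpl37a summed with its pseudogene. Code was tested on simulated data. Values of some single genes are not reported here.

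The members, lists and named genes were chosen with earlier results of these data known. Genes were named by highest and lowest FPKM, smallest p in a comparison, widest and narrowest gap between group means, and role (stalk, Rpsa, Rps6, Rpl3, paralogs); those least correlated with the others, those called in an alternative only, and genes beside them were named after their values were seen. Replicates differed by more than counting noise (chi-square of 3.02 to 7.91 per gene).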

Additional observations from a re-analysis of the deposited data

How the results depend on the processing

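With 2 libraries a group, replication limits every test, and members near 1 CPM rest on few fragments. Of 172 recomputed medians over the members, 153 moved by less than the SD between replicates (0.053). With the members alone as the scale, which centres them by construction, the medians were 0.011 (supplemented ADX against ADX), 0.00465 (supplemented ADX against sham), 0.00099 (1 h acute against sham), -0.0023 (3 h acute against sham), -0.0074 (1 h acute against supplemented ADX) and 0.0036 (3 h against 1 h acute), and no member was called in 3 h acute against sham. The length offset gave 0.045 for supplemented ADX against ADX, -0.0035 for 1 h acute against sham, -0.065 for 1 h acute against supplemented ADX and 0.037 for 3 h against 1 h acute. Fitted without the members, it gave -0.0027, -0.073 and 0.046 for the last 3 of these. Both length fits called 3 members higher in 1 h acute against sham (Rpl13a and Rpl23a among them), DESeq2 called 2 and the fit of 4 libraries 1. The length fits called 5.12% and 5.13% of all genes higher. In either direction, DESeq2 called 12.6% of all genes and the fit of 4 libraries 0.182%. In 3 h acute against sham the count of 2 went to 0 with the thalamus score (Rplp2 0.42, Rpl13a 0.24) and in the fit of 4 libraries (0.35 and 0.23), with differences about as large as reported. Limma-trend on log2(FPKM + 1) called 1 in high Cort against ADX (all genes 4.51%). DESeq2 called 1 in the test over 6 groups (share of all genes not given here). The causes were not tested.

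With each library left out in turn, medians lay from -0.083 (without high Cort replicate 1) to 0.033 (without replicate 2) in high Cort against sham, -0.034 to 0.014 in ADX against sham, -0.064 to 0.040 in high Cort against ADX, and 0.041 to 0.15 in 3 h acute against sham. They lay from -0.085 to -0.037 in 1 h acute against sham, 0.070 to 0.13 in supplemented ADX against ADX, 0.058 to 0.11 in supplemented ADX against sham, -0.060 to 0.067 in 3 h acute against supplemented ADX and 0.079 (without 3 h acute replicate 2) to 0.20 in 3 h against 1 h acute. Whether members were called depended on the library left out in 3 h acute against sham and in the test over 6 groups. It also did in high Cort against ADX, 1 h acute against sham and 1 h acute against supplemented ADX. With the replicate block, 1 member (Rplp2) was called in 3 h acute against sham in place of 2, Rpl13a having an adjusted p of 0.063, and no other count of members changed. Same-numbered libraries did not deviate together: of 15 pairs of groups, 2 had a correlation above 0.1 (from -0.38 to 0.15), so the numbers were not treated as pairs.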
